A study of Mus musculus with 10 samples.

Results

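The genes of AMP-activated protein kinase (AMPK) and of the kinases that switch it on, 10 in all, were followed in mouse kidney after treatment with rilmenidine. They are the 6 subunit genes Prkaa1, Prkaa2, Prkab1, Prkab2, Prkag1 and Prkag2, the kinase gene Stk11 (LKB1) with its scaffold Cab39, the kinase gene Camkk2, and Ppargc1a, which encodes the coactivator PGC-1α. The members were chosen by gene symbol, all 10 were found among the 43629 genes listed in the count table, and all 10 were among the 10055 genes that passed the filter on low counts and were tested. The kidneys came from UM-HET3 males, a stock of crossed inbred strains in which each animal has its own genotype. From 3 months of age, 4 mice received Purina 5LG6 chow with rilmenidine (an imidazoline receptor agonist that lowers blood pressure) at 10 ppm for 1 month, and 6 littermates received the chow alone. Kidneys were taken at 4 months, no genetic change was introduced in either group, and each library is 1 kidney. In the worm experiments of the same study, mutants of aak-2, a catalytic subunit gene of AMPK, were used to ask whether the drug acts through it. Rilmenidine still lengthened the life of these mutants, and the paper proposes that AMPK is not needed for this effect. The kidney counts allow the transcripts of the mouse enzyme to be compared between treated and control animals.

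AMPK is a trimer of a catalytic alpha, a scaffolding beta and a nucleotide-binding gamma subunit. When ATP falls, AMP and ADP bind the gamma subunit and favour phosphorylation of a threonine in the activation segment of the alpha subunit. LKB1, held in its active form by the pseudokinase STRAD and the scaffold MO25 (the product of Cab39), is the main kinase for this site, and CaMKK2 phosphorylates it in response to calcium. Active AMPK restrains lipid synthesis and mTORC1 and promotes autophagy and fat oxidation, and PGC-1α, which it can phosphorylate, drives mitochondrial gene expression. Tubule cells of the kidney spend much ATP on ion transport and rely on fat oxidation. The control of AMPK by nucleotides and by these kinases acts on the protein, so transcript counts do not show the activity of the kinase.

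The activation segment is printed for both catalytic genes because it is the target that LKB1 and CaMKK2 share, and because it shows how alike the paralogs are where the enzyme is controlled. The bases are coding sequence of GRCm38 transcripts, 5′ to 3′ on the coding strand, with the codon of the phosphorylated threonine in capitals. In Prkaa1 they lie on the plus strand of chromosome 15, with 7 bases in exon 4 (chr15:5168706-5168712) and 74 in exon 5 (chr15:5169929-5170002). In Prkaa2 they lie on the minus strand of chromosome 4, with 7 bases in exon 4 (chr4:105051202-105051208) and 74 in exon 5 (chr4:105049348-105049421).
Prkaa1: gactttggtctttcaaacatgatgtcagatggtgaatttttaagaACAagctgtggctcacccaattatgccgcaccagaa
Prkaa2: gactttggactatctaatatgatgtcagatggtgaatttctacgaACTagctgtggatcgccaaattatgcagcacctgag
The segments differ at 13 of 81 bases, and 0 of the 27 codons encode a different residue. The 3′ ends, where the reads of this protocol fall, were distinct in sequence except for Prkag1 and Stk11. Of the 951 stretches of 50 bases in the last 1000 bases of the longest coding transcript, 0 occurred in a transcript of another gene for Prkaa1, Prkaa2, Prkab1, Prkab2, Prkag2, Cab39, Camkk2 and Ppargc1a. For Prkag1, 27.1% were shared with the opposite-strand gene B130046B21Rik and for Stk11, 19.2% with Cbarp, and both of those genes had 0 counts in every library. Opposite-strand genes also span the 3′ ends of Prkaa1 (Gm15938, 0 to 6 counts per library), Prkab1 (Gm14508, 0 to 1) and Prkab2 (Gm17651, 0 to 7). The strand setting of the counting is not given in the sources used here, so reads in these overlaps cannot be assigned with certainty.

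The libraries held 863605 to 2559118 counts in control kidneys (median 1489031) and 1813465 to 3232063 in rilmenidine kidneys (median 2483263). Part of the extraction text in the labels speaks of liver, but the proximal tubule genes Slc34a1 and Kap had 5478 to 20224 and 28005 to 170342 counts per library. Of the 5 liver genes Alb, Apoa1, Apob and Tat had at most 20 counts in any library, whereas Cyp2e1, which proximal tubules of male mice also express, had 1477 to 8318. Skeletal muscle and brown fat, which express Ppargc1a strongly, left little trace. Acta1 and Ckm had 0 counts in every library, and Myh4, Mylpf and Tnnt3 had at most 12. Ucp1 had 2 to 13 counts, and Cidea, Elovl3, Adipoq and Plin1 had at most 19. The nuclear RNA Malat1 stood at 1182 to 2100 CPM in control kidneys 1, 3, 4 and 5, and at 284 to 398 CPM in control kidneys 2 and 6 and all rilmenidine kidneys. Summed with Neat1 it ran from 577.4 to 3435 CPM in control and from 461.8 to 575.1 CPM in rilmenidine kidneys, so the groups only just did not overlap. The sum of the 6 collecting duct principal cell markers did not overlap either, at 143 to 190 CPM in control and 201 to 230 CPM in rilmenidine kidneys. The markers were not compared singly, and 1 of them, Avpr2, had at most 1 count in a library. The sums of the 11 other lists of cell type markers, from podocytes to immune cells, overlapped between the groups. In whole kidney, fewer cells of a type and less RNA per cell cannot be told apart.

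None of the 10 genes passed the test. P-values were adjusted by Benjamini-Hochberg. At an adjusted p-value under 0.05, edgeR's quasi-likelihood fit called 0 of the 10 members and 0 of all 10055 genes (0.0%). DESeq2 called 60 and the edgeR likelihood ratio test 44 of all genes, and each called 0 members. For Prkab2 and Stk11 DESeq2 gave no adjusted p-value. Without adjustment, 2 members had a p-value under 0.05, Prkaa1 and Camkk2, both lower with rilmenidine, against 616 of all genes in that direction (6.13%) and 445 in the other (4.43%). The log2 fold change (rilmenidine over control) was under 0 for 9 of the 10 members, with a median of −0.19, against 49.7% of all genes and a median of 0.0021. Levels below are normalized CPM, which are counts scaled to a common library total after RLE normalization (a median-ratio scaling of the libraries).

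**Figure D1:**
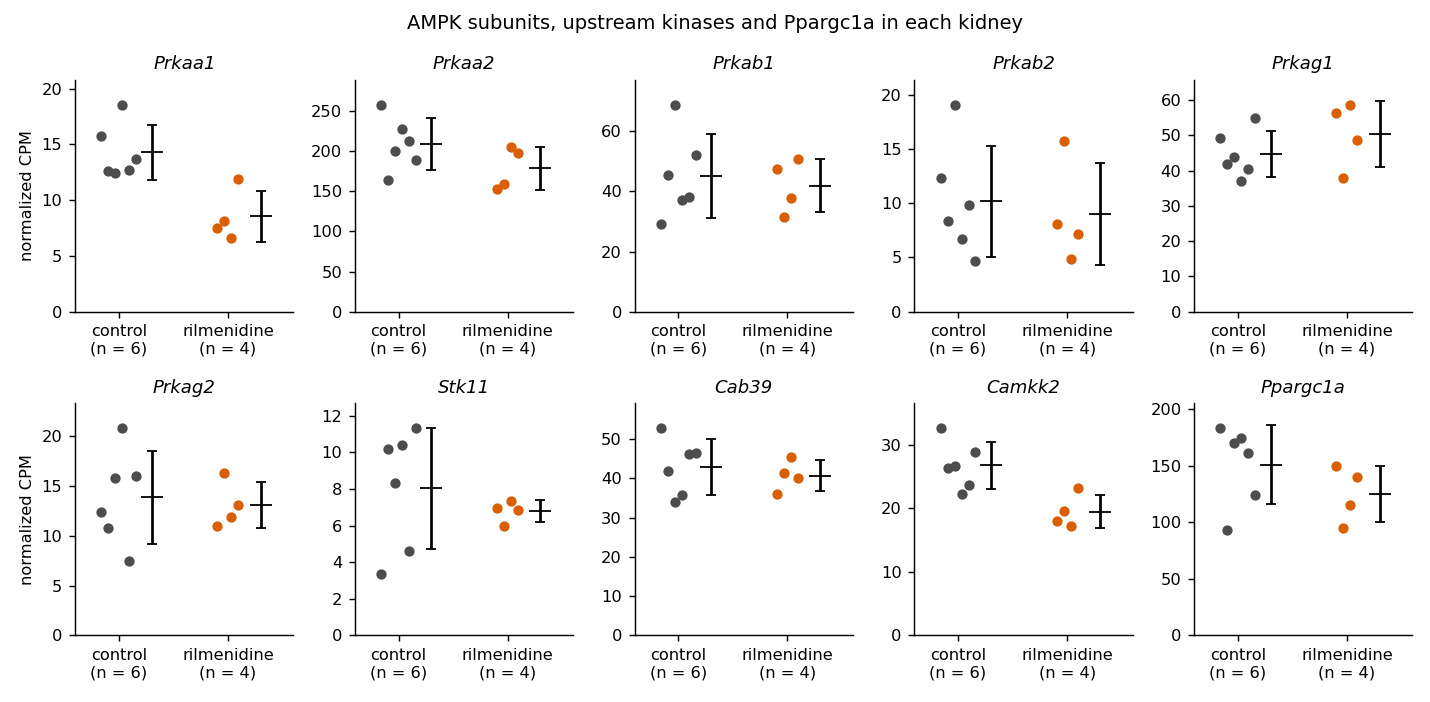
Normalized CPM (y axis from 0) of each member in each kidney, with control kidneys in grey and rilmenidine kidneys in orange, and the mean ± SD to the right of each group. For Prkaa1 the 4 rilmenidine kidneys, at 6.65 to 11.9 CPM, lie below the 6 control kidneys, at 12.5 to 18.6 CPM, and for the other 9 genes the groups overlap.

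Prkaa1 (ENSMUSG00000050697; GRCm38 chromosome 15, 5143861 to 5181899) encodes AMPK α1, the catalytic subunit found in most cell types. The control kidneys had a lowest value of 12.5, a median of 13.2 and a highest value of 18.6 CPM. Rilmenidine kidneys 1 to 4 had 7.54, 8.15, 6.65 and 11.9 CPM. Every treated kidney thus lay below every control kidney, a separation that 88 of all genes (0.875%) had in this direction and 80 (0.796%) in the other, and rilmenidine kidney 4 came within 1 CPM of the lowest control. The means were 14.3 ± 2.43 (SD, n = 6) and 8.55 ± 2.30 CPM (SD, n = 4). The log2 fold change was −0.71 (standard error 0.25, 95% interval −1.23 to −0.18), with an adjusted p-value of 0.326 (unadjusted 0.0114) by edgeR. As a ratio this is 0.613 with an interval of 0.426 to 0.882. The gene was sparsely counted, with 13 to 38 reads per library, where counting alone gives a coefficient of variation of 27.7% at the lowest count. Control kidneys 2 and 6, which had the low Malat1 of the treated kidneys, had 12.6 and 13.7 CPM of Prkaa1, above all treated kidneys. With log2 Malat1 as a covariate the log2 fold change was −0.60 (edgeR p-value 0.0695 before adjustment, 0.9996 after it).

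Prkaa2 (ENSMUSG00000028518; chromosome 4, 105029874 to 105109890) encodes α2, the catalytic subunit abundant in muscle, heart and kidney. Its level ran from 164 through a median of 206 to 258 CPM in control kidneys and was 153, 159, 205 and 197 CPM in rilmenidine kidneys 1 to 4. Rilmenidine kidneys 1 and 2 were below all controls, whereas 3 and 4 sat inside the control range. Its log2 fold change was −0.22 (standard error 0.14, 95% interval −0.52 to 0.08, adjusted p-value 0.621 in the edgeR quasi-likelihood test), so that a treated level between 0.699 and 1.06 times the control level remained possible. It was −0.017 with log2 Malat1 as a covariate, and −0.45 within the 7 libraries (5 control and 2 rilmenidine) that held at least 10 CPM of olfactory and vomeronasal receptor reads, a feature the labels do not record as a batch. The 3 other libraries hold 1 control and were not tested alone.

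Reads of the alpha genes were mostly Prkaa2. Of the 244 to 670 alpha reads in a library, Prkaa1 made up 5.64% to 7.55% in control kidneys (median 6.29%) and 4.69%, 4.89%, 3.14% and 5.67% in rilmenidine kidneys 1 to 4. Rilmenidine kidney 4 was above control kidney 5 in this share, so the groups overlapped by 1 pair. Dividing each count by the length of the longest coding transcript, 4.66 kb for Prkaa1 and 7.97 kb for Prkaa2, put Prkaa1 at a median of 10.3% of the alpha level per length in control and 7.93% in rilmenidine kidneys. Reads from 3′ ends need not scale with transcript length, so both versions are given.

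**Figure D2:**
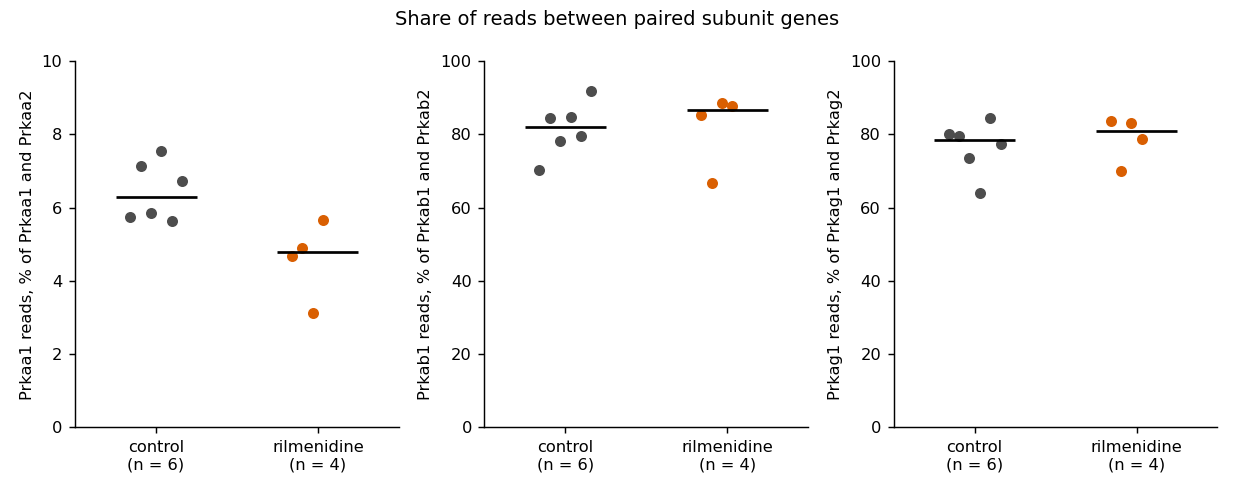
Share of reads (percent, y axis) taken by the first gene of each subunit pair in each kidney, with medians as lines. Prkaa1 held 3.14% to 7.55% of the alpha reads (axis to 10%), while Prkab1 held 66.7% to 91.8% of the beta reads and Prkag1 64.1% to 84.3% of the gamma reads (axes to 100%).

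The beta subunits tether alpha to gamma and carry a glycogen-binding module. Prkab1 (ENSMUSG00000029513; chromosome 5, 116013586 to 116024508) ran from 29.2 through a median of 41.9 to 68.9 CPM in control kidneys and was 47.6, 31.5, 37.8 and 50.9 CPM in rilmenidine kidneys 1 to 4. All 4 treated kidneys lay within the control range. Its log2 fold change was −0.11 (95% interval −0.56 to 0.33), and it turned to 0.031 when control kidney 3, the highest, was left out. Prkab2 (ENSMUSG00000038205; chromosome 3, 97658193 to 97673812), whose product is the more muscle-typical beta subunit, ran from 4.68 through 9.11 to 19.1 CPM in controls and was 8.12, 15.8, 4.90 and 7.18 CPM with the drug. With 9 to 29 reads per library it was the most variable member, with an estimated biological coefficient of variation of 36.4% against 28.5% for genes of its abundance. A log2 fold change of −0.16 had an interval of −0.99 to 0.68, and its sign changed with the depth or Malat1 covariate, within the 7 libraries and without control 3 or rilmenidine 3. Prkab1 made up a median of 82.0% of beta reads in control and 86.5% in rilmenidine kidneys, and rilmenidine kidney 2, at 66.7%, stood apart from the other treated kidneys at 85.4% to 88.5%.

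The gamma subunits hold the sites where AMP, ADP and ATP compete. Prkag1 (ENSMUSG00000067713; chromosome 15, 98812797 to 98831521), the widely expressed form, ran from 37.1 through 43.0 to 55.0 CPM in control kidneys and was 56.3, 38.0, 58.8 and 48.7 CPM in rilmenidine kidneys. Rilmenidine kidneys 1 and 3 were above all controls and kidney 2 was near the lowest of them. It was the only member with a log2 fold change above 0, at 0.18 (95% interval −0.16 to 0.51, adjusted p-value 0.748 in the edgeR quasi-likelihood test). Prkag2 (ENSMUSG00000028944; chromosome 5, 24862744 to 25100642), whose human mutations cause a glycogen-storing heart disease, ran from 7.52 through 14.1 to 20.8 CPM in controls and was 11.02, 16.3, 11.9 and 13.1 CPM with the drug, inside the control range. The log2 difference was −0.083 (95% interval −0.64 to 0.48). The share of Prkag1 in gamma reads had medians of 78.5% and 81.0%. The muscle-restricted gamma gene Prkag3 had 3 to 7 reads in each library and was not tested.

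Of the upstream kinases, Camkk2 (ENSMUSG00000029471; chromosome 5, 122731170 to 122779409), the calcium-dependent AMPK kinase, had the fold change furthest from 1. Control kidneys ran from 22.3 through a median of 26.5 to 32.6 CPM, and rilmenidine kidneys 1 to 4 had 18.0, 19.6, 17.1 and 23.1 CPM. Rilmenidine kidneys 1 to 3 were below all controls, and kidney 4 was above control kidney 4 alone. The means were 26.7 ± 3.67 (SD, n = 6) and 19.4 ± 2.64 CPM (SD, n = 4). The log2 fold change was −0.44 (standard error 0.18, 95% interval −0.82 to −0.068), with an adjusted p-value of 0.385 (unadjusted 0.0234) by edgeR. The low-Malat1 control kidneys 2 and 6 had 26.4 and 28.9 CPM, above all treated kidneys. With log2 Malat1 as a covariate the log2 fold change was −0.50 (edgeR p-value 0.0350 before adjustment, 0.9996 after it). Among the 19 other settings tried, which reuse the same libraries, the p-value before adjustment was under 0.05 in 14. It was above 0.05 in edgeR with log2 library size (0.0647), within the 7 libraries (0.0931) and with the replicate number as a block (0.0860). The same held without rilmenidine kidney 1 (0.0546) or 3 (0.0742). Rilmenidine kidney 4 was the highest treated kidney for Camkk2 as it was for Prkaa1.

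Stk11 (ENSMUSG00000003068; chromosome 10, 80115803 to 80130682), the gene of the tumour suppressor kinase LKB1, had 3 to 29 reads per library. It ran from 3.37 through 9.24 to 11.3 CPM in control kidneys and was 6.96, 5.97, 7.35 and 6.87 CPM in rilmenidine kidneys. The treated kidneys were close together, in the gap between control kidneys 1 and 5, at 3.37 and 4.63 CPM, and the other 4 controls, at 8.30 CPM or more. Its log2 fold change of −0.28 had an interval of −0.97 to 0.40, which leaves room for a treated level from 0.510 to 1.32 times that of controls. Cab39 (ENSMUSG00000036707; chromosome 1, 85793441 to 85851576), the scaffold that locks LKB1 in its active shape, had the lowest biological coefficient of variation among the members, 14.4%. It ran from 34.0 through 44.1 to 52.8 CPM in control kidneys and was 36.0, 41.3, 45.5 and 40.0 CPM with the drug, all inside the control range. Its log2 fold change was −0.070 with the interval −0.39 to 0.25, and its sign turned (0.013) with the replicate number as a block.

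Ppargc1a (ENSMUSG00000029167; chromosome 5, 51454250 to 51567726) was, with Prkaa2, one of the deeply counted members, at 155 to 449 reads per library. Its level ran from 92.9 through a median of 166 to 183 CPM in control kidneys and was 150, 95.03, 115 and 140 CPM in rilmenidine kidneys. All treated kidneys were under the control median but none was under the lowest control. For Ppargc1a the log2 fold change was −0.26 (standard error 0.18, 95% interval −0.65 to 0.13, adjusted p-value 0.640 in the edgeR quasi-likelihood test). This value changed when Malat1 entered the fit. Control kidneys 1, 3, 4 and 5, which were rich in Malat1, had 161 to 183 CPM of Ppargc1a, and the Malat1-poor control kidneys 2 and 6 had 92.9 and 124 CPM, within or below the range of the treated kidneys. The log2 fold change was 0.12 with log2 Malat1 as a covariate and −0.022 when library size (log2) was the covariate. That of Prkaa1 was −0.60 and −0.70 in these fits and that of Camkk2 −0.50 and −0.45. The adjusted p-values of all these values were 0.9755 or more by edgeR. Among the controls only kidneys 2 and 6 were Malat1-poor, as were all rilmenidine kidneys, so Malat1 and treatment were largely confounded. Their parts were not tested.

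**Figure D3:**
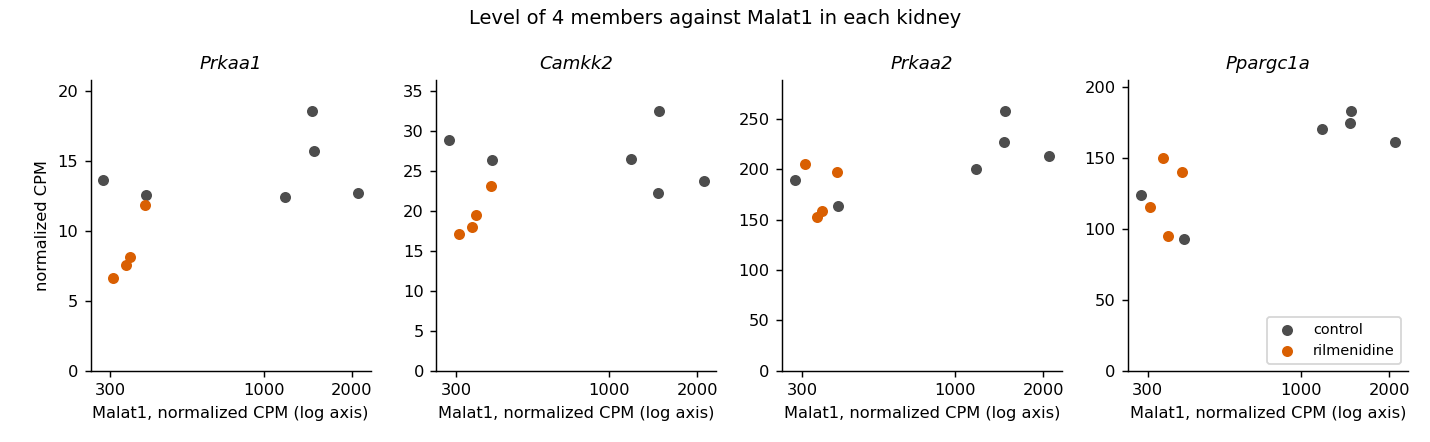
Normalized CPM of 4 members (y axes from 0) against normalized CPM of Malat1 (log axis) in each kidney, control in grey and rilmenidine in orange. At Malat1 of 398 CPM or less the 2 control kidneys lie above the 4 rilmenidine kidneys for Prkaa1 and Camkk2, and not for Prkaa2 and Ppargc1a. At any Malat1 level, all 6 control kidneys do so for Prkaa1 and 5 of the 6 for Camkk2, so these 2 kidneys add little to that separation.

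**Figure D4:**
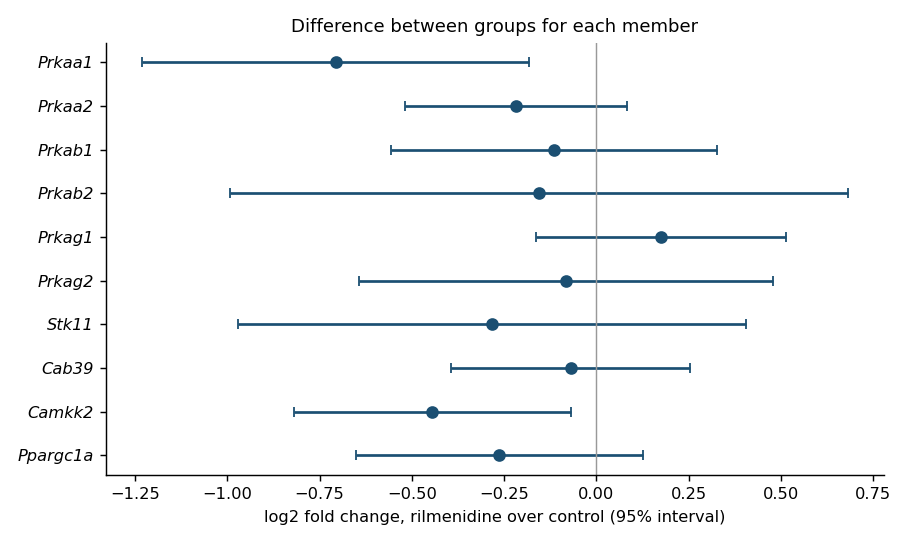
Log2 fold change of each member, rilmenidine over control, with its 95% interval from the edgeR quasi-likelihood fit. The intervals of Prkaa1 (−1.23 to −0.18) and Camkk2 (−0.82 to −0.068) lie below 0 without adjustment for the number of genes tested, and the other 8 hold 0.

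Set against transcript length, the members differed widely in level in control kidneys. The mean level in CPM per kb of the longest coding transcript was 27.0 ± 3.93 for Prkag1, 26.2 ± 4.08 for Prkaa2, 23.3 ± 5.42 for Ppargc1a and 21.6 ± 6.71 for Prkab1 (SD, n = 6), neighbours that did not differ beyond their spread. Cab39 followed at 11.3 ± 1.87 and Camkk2 at 5.50 ± 0.755, each apart from the gene above it by more than the sum of both SDs. Prkag2 (4.16 ± 1.40), Stk11 (3.13 ± 1.29), Prkaa1 (3.07 ± 0.522) and Prkab2 (2.03 ± 1.02) formed the low end. From Camkk2 down to Prkaa1 each gene lay within the spread of the next, and Prkaa1 lay just outside that of Prkab2. This order rests on the division by length, which reads from 3′ ends need not follow. Before it, Prkaa2 stood at 208.6 ± 32.5 CPM, above Prkag1 at 44.7 ± 6.49 CPM, and Cab39, at 42.8 ± 7.11 CPM, lay within the spread of Prkag1 and of Prkab1 at 45.2 ± 14.0 CPM (SD, n = 6). In either version the alpha, beta and gamma subunits each had 1 gene well above the other.

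Across the 10 kidneys the log2 level of Prkaa1 went with that of Camkk2 (Pearson's r = 0.78) and Prkaa2 (r = 0.61) and not with that of Prkag1 (r = −0.46), given as a description over kidneys that share the group difference and the scaling of each library. The genes most like Prkaa1 by r were Celsr2 (0.89), Hnrnpm (0.889) and Tab2 (0.889). Those most like Prkaa2 were Xpot (0.989), Mfap3l (0.931) and Lrrc58 (0.927), and those most like Ppargc1a were Arhgef16 (0.944), Zrsr1 (0.94) and Phldb2 (0.94). These genes had the highest r of all tested genes with a full symbol, and no test is attached to them.

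The wider pathway was read through 77 genes in 6 lists, of which 63 were tested. The edgeR quasi-likelihood test called 0 of them at an adjusted p-value under 0.05 in either direction. Before adjustment, 2 of the 63 were higher and 4 lower at a p-value under 0.05, shares near the 4.43% and 6.13% of all genes. Fold changes lay above 0 (log2) for 27 and below 0 for 36 of the genes, against 49.7% of all genes below 0, with a median of −0.049 against 0.0021 for all genes.

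Closest to the members stood the other LKB1 partners and AMPK kinases, of which 4 of 6 were tested and 0 passed, with a median log2 fold change of −0.13. Cab39l, the paralog of Cab39, had 70.6 ± 5.17 CPM (SD, n = 6) in control and 79.4 ± 2.63 CPM (SD, n = 4) in rilmenidine kidneys, a log2 fold change of 0.17. Map3k7, the gene of the kinase TAK1, had a log2 fold change of −0.21, and the pseudokinase genes Strada and Stradb had −0.056 and −0.27. Camkk1, the paralog of Camkk2, had at most 5 reads in a library and was not tested. All 11 regulators of AMPK were tested, with 5 above and 6 below 0 and 0 past the threshold. The folliculin partner Fnip2 (0.39) and the deacetylase gene Sirt1 (−0.36) had the smallest p-values in each direction, and the adjusted values were 0.524 and 0.549 in the edgeR quasi-likelihood test.

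Among the AMPK substrates 19 of 22 were tested, with 8 above and 11 below 0 and a median of −0.040. The furthest was Mlxipl, which encodes the glucose-sensing lipogenic factor ChREBP. It ran from 32.0 through a median of 77.9 to 127 CPM in control kidneys and was 35.4, 35.8, 26.6 and 42.2 CPM in rilmenidine kidneys. The treated kidneys sat together at the low end, beside control kidneys 6 and 2 at 32.0 and 46.1 CPM, which are the Malat1-poor controls. For Mlxipl the log2 fold change was −1.15 (standard error 0.31, unadjusted p-value 0.00169, adjusted p-value 0.232 in the edgeR quasi-likelihood test), and −0.13 with log2 Malat1 as a covariate. It was −1.31 within the 7 libraries and −1.12 with the replicate number as a block. Mlxipl passed with DESeq2 (adjusted p-value 0.0356), with genes of at least 1 count kept and without control kidney 6. Tsc2, the mTORC1 inhibitor that AMPK phosphorylates, was at 0.35, the autophagy kinase gene Ulk1 at −0.13 and Acaca, the gene of acetyl-CoA carboxylase, at 0.068, with adjusted p-values of 0.582, 0.780 and 0.963 in the same edgeR test. The AMPK-related kinases that LKB1 also activates were measured for 6 of 12 genes, 3 above and 3 below 0, between Mark3 at −0.24 and Sik3 at 0.14.

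The PGC-1 coactivators and their factors had 10 of 13 tested genes below 0 and a median log2 fold change of −0.16, and 0 passed. Gabpb1, a subunit of the nuclear respiratory factor GABP, had 19.5 ± 6.68 CPM (SD, n = 6) in control and 12.7 ± 5.14 CPM (SD, n = 4) in rilmenidine kidneys. Its log2 fold change was −0.61 (unadjusted p-value 0.0437, adjusted p-value 0.456 in the edgeR quasi-likelihood test). With log2 Malat1 as a covariate it was −0.53 and within the 7 libraries −0.50, with unadjusted p-values of 0.156 and 0.217 in that test. Polrmt, the mitochondrial RNA polymerase, had 27.6 ± 5.51 and 20.6 ± 2.56 CPM, a log2 fold change of −0.44 (unadjusted p-value 0.0312, adjusted p-value 0.421 in the same edgeR test). In those fits the log2 fold change of Polrmt was −0.36 and −0.39, with unadjusted edgeR p-values of 0.133 and 0.185. Esrra, the nuclear receptor that PGC-1α coactivates most directly, was at 0.27 and the mitochondrial DNA packaging gene Tfam at 0.12.

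Genes that PGC-1α is known to induce lay on both sides, with 7 above and 3 below 0 among 10 tested and a median of 0.11. Acadm, the medium-chain acyl-CoA dehydrogenase of fat oxidation, had 324, 291, 578 and 465.6 CPM in rilmenidine kidneys 1 to 4 against 254 to 349 CPM in controls. Only rilmenidine kidneys 3 and 4 were above the control range, and the log2 fold change of 0.52 (adjusted p-value 0.313 in the edgeR quasi-likelihood test) was 0.048 within the 7 libraries, which leave those 2 kidneys out, and 0.60 with log2 Malat1 as a covariate. Cox4i1, a subunit of cytochrome c oxidase, was at 0.33 (adjusted p-value 0.442 in the same edgeR test) at 0.045 with log2 Malat1 as a covariate and at 0.44 within the 7 libraries. Vegfa, the vascular growth factor, lay on the other side, with 119 ± 33.3 CPM (SD, n = 6) in control and 73.5 ± 9.78 CPM (SD, n = 4) in rilmenidine kidneys and a log2 fold change of −0.70 (adjusted p-value 0.244 in the edgeR test). Its values in the Malat1-poor control kidneys 2 and 6, 80.3 and 83.8 CPM, were close to those of the treated kidneys at 61.2 to 81.8 CPM, and it was at −0.20 with log2 Malat1 as a covariate and at −0.64 within the 7 libraries. The part of Malat1, of the principal cell markers and of depth in these differences was not tested further.

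**Figure D5:**
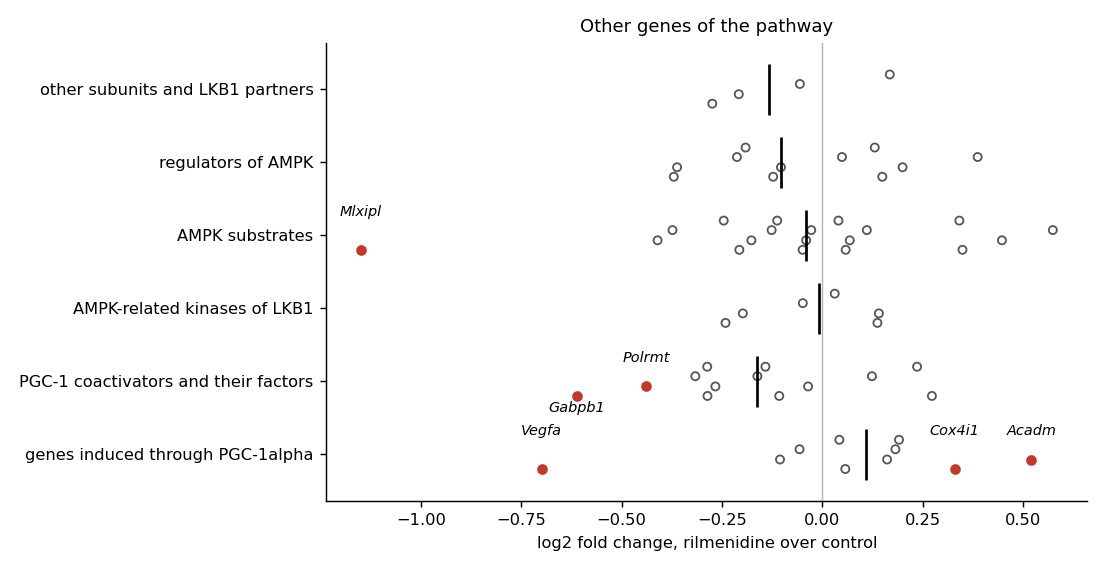
Log2 fold change, rilmenidine over control (x axis), of the 63 tested genes of the 6 pathway lists, each list in a row with its median as a line. Filled red points are the 6 genes with an unadjusted p-value under 0.05, from Mlxipl at −1.15 to Acadm at 0.52, and 0 of the 63 passed after adjustment in the edgeR quasi-likelihood test, while Mlxipl passed with DESeq2 (adjusted p-value 0.0356).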

How the data were processed

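The authors deposited raw read counts per Ensembl gene for 10 kidney libraries (6 control, 4 rilmenidine), made from 3′ ends of transcripts. The study's methods give a larger number of control kidneys than the 6 that carry labels here, and any others were not analysed here. Per the labels, reads were handled with bcl2fastq 1.8.4, Trimmomatic 0.32, STAR 2.5.2b and featureCounts 1.5 on mm10. The annotation release, strand setting and use of molecular identifiers are not given in the sources used here, so counts may include amplified copies. Symbols and coordinates came from GENCODE M21 (GRCm38), which held 42548 of the 43629 genes.

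The low-count filter followed the study's methods: a gene was kept when 66.6% or more of the libraries held 6 or more of its reads. Libraries were scaled by RLE. The edgeR 4.0.16 quasi-likelihood test (R 4.3.3) compared the groups over all libraries without covariates, with Benjamini-Hochberg adjustment over all genes and a threshold of 0.05. The code was tested on simulated data. Log2 levels used a prior count of 2. The members, the 6 pathway lists, the marker lists and the alternatives were chosen with earlier results of these data known. The text names all members, Malat1, the pathway genes with an unadjusted p-value under 0.05, in each list and direction the gene whose p-value was smallest, and the 3 genes with the highest r to Prkaa1, Prkaa2 and Ppargc1a (predicted and Riken names passed over). Strada, Stradb, Prkag3, Camkk1, Ulk1, Acaca and Tfam were named for their roles after their values were seen. Alternatives were TMM, 2 other filters, DESeq2 1.42.0, the likelihood ratio test, depth and Malat1 covariates, the 7 libraries with at least 10 receptor CPM, a replicate block, and leaving out each kidney. The labels give replicate numbers but no litter or day that they mark. No libraries were copies of each other (chi-square per degree of freedom of at least 3.70).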

Additional observations from a re-analysis of the deposited data

Results flagged for a closer look

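Of 26 groups of values examined (the 10 members and 3 read shares in each group), 1 held a kidney far from the others, about as many as the 1 in 20 that chance alone flags. In rilmenidine kidney 2, Prkab1 made up 66.7% of the reads of both beta subunit genes, while the other treated kidneys had 85.4% to 88.5%. This kidney had 58 reads of Prkab1 and 29 of Prkab2, and the control kidneys ran from 70.3% to 91.8%. The same library had the most receptor reads, at 436 CPM without RLE scaling, and the most genes with a count, 22848. The part of these features was not tested.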

How the results depend on the processing

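Over the 19 alternatives 0 members were called in any, with adjusted p-values from 0.233 to 0.9996 in edgeR and DESeq2, and 178 of 188 log2 fold changes kept their direction. Prkab2 and Stk11 did not pass the filter of at least 10 counts in every library. DESeq2 gave them no adjusted p-value, so they could not be called in these settings. Prkaa1 stayed between −0.93 and −0.59 and Camkk2 between −0.55 and −0.38. The unadjusted p-value of Prkaa1 was under 0.05 in 18 of its 19 alternatives and that of Camkk2 in 14 of 19, and Prkaa2, Prkag1 and Stk11 also kept their sign. The alternatives reuse the same libraries, so these counts are not independent support. In the main edgeR quasi-likelihood fit 10.6% of all genes had an unadjusted p-value under 0.05, and their counts over the alternatives were not made. Reversals were Prkab2 at 0.60 with log2 library size, 0.36 with log2 Malat1 and 0.11 within the 7 libraries, Prkag2 at 0.041 within the 7 libraries, Cab39 at 0.013 with the replicate block and Ppargc1a at 0.12 with log2 Malat1. Leaving out single kidneys gave −0.23 to 0.031 for Prkab1 (without control 3), −0.54 to 0.12 for Prkab2 (without control 3 or rilmenidine 3) and −0.22 to 0.061 for Prkag2 (without control 4). Values that kept their sign but moved by over 1.5 times included those of Stk11 (−0.14 without control 6, −0.61 with log2 library size, −0.67 with log2 Malat1), Prkag1 (0.090 without rilmenidine 3, 0.28 without rilmenidine 2, 0.076 with log2 library size, 0.026 with log2 Malat1), Ppargc1a (−0.15 without rilmenidine 2, −0.022 with log2 library size) and Prkaa2 (−0.017 with log2 Malat1, −0.45 within the 7 libraries). For Cab39 single kidneys gave −0.13 to −0.014. The cause was not tested.

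All genes called went from 0 to 241 (64 higher, 177 lower) when genes with at least 1 count were kept, 60 (15 and 45) with DESeq2 and 44 (11 and 33) with the likelihood ratio test. Without single kidneys they ranged from 0 to 37 (0 to 6 higher, 0 to 35 lower), with 33 without control 2, 37 without control 6 and 6 without rilmenidine 1. Of the AMPK substrates 1 gene, Mlxipl, was called with the 1-count filter, with DESeq2 (adjusted p-value 0.0356) and without control 6 (0 to 1 over single kidneys), and of the genes induced through PGC-1α 1, Vegfa, with the 1-count filter. The medians of the read shares moved by less than 1 SD when single kidneys were left out. Same-numbered kidneys had correlations of −0.0768 to 0.0775 in their deviations, so the replicate block (8 libraries, 0 members called, Prkaa1 at −0.79) rests on numbers alone. At 3 to 42 reads per library, Prkaa1, Prkab2, Prkag2 and Stk11 are limited by depth.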
